A study of Caenorhabditis elegans with 4 samples.

Results

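The sites described here are the 1159 HTZ-1 peaks that the list covering the whole series places on chromosome II of C. elegans, out of 7546 peaks on all 6 chromosomes (15.4%). They were chosen by their chromosome alone, and neither their scores nor their widths entered the choice. That list is called the combined list, and its peaks are called sites. Each ChIP replicate has its own list of wider peaks, with 624 of 3848 peaks on chromosome II in replicate 1 and 597 of 3650 in replicate 2. HTZ-1 was profiled by chromatin immunoprecipitation and sequencing in embryos of mixed stages from the wild-type strain N2, a mixed population of males and hermaphrodites kept at 20 °C. The 2 HTZ-1 ChIP samples, pulled down with an affinity-purified rabbit polyclonal antibody against the N-terminus of the protein, have 2 input DNA samples from the same kind of embryos, which were not analysed here. All 4 samples share strain, genotype and fixation in 2% formaldehyde, whole embryos were used, and nothing in the labels tells whether separate cultures stand behind the replicates, so differences between the 2 lists may be technical.

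HTZ-1 is the nematode form of the histone H2A.Z, a variant that takes the place of H2A in some nucleosomes and in many organisms flanks the start sites of transcribed genes. In C. elegans embryos it is known mainly from promoters. Worm chromosomes have no single centromere. On each autosome a central region with conserved, broadly expressed genes lies between arms that recombine more and hold more repeats, and chromosome II is also known for clusters of F-box and MATH-domain genes. Positions are 1-based on WormBase WS220. Neither a genome sequence nor an annotation of WS220 was used, so the genes and the DNA sequence at the sites were not analysed here.

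Chromosome II was divided by site midpoint into a left arm, a centre and a right arm at 5.1 and 10.2 Mb. The right arm ran to 15264030, the furthest peak end in any list, so the segments were 5.1, 5.06 and 5.1 Mb long for left arm, right arm and centre. No site spanned the first division and 1 site in each list spanned the second. Scores come from the authors' peak caller on an unstated scale and are used as ranks within a list. Read depth is unknown. With 2 replicates, an exact two-sided permutation test of a difference within replicates cannot go below p = 0.5, so no test was run for differences along the chromosome. Differences are set against the spread between the 2 replicate lists, and intervals of shares are exact 95% binomial intervals that cover counting error only.

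The left arm was the sparse part of chromosome II. It held 335 sites, against 448 on the right arm, or 65.7 and 88.5 sites per Mb, a ratio of left arm to right arm of 0.742. Full 1 Mb bins were also counted, each given to the segment that holds the bin's midpoint. These bins only approximate the segments and leave out the last 0.264 Mb. In them the left arm had 64.4 ± 15.9 sites, the right arm 84.8 ± 15.2 and the centre 76.2 ± 8.35 (SD over 5 bins each, a spread along the chromosome and not between replicates). The replicate lists placed the left arm lowest as well, with 31.2 peaks per Mb in replicate 1 and 30.2 in replicate 2, against 45.6 and 42.1 on the right arm. The gap between the arms was therefore wider than the spread between the lists.

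The right arm and the centre ranked differently by list. In the combined list the right arm had the higher density, 88.5 sites per Mb against 73.7 in the centre. In the replicate lists the right arm had 45.6 and 42.1 peaks per Mb and the centre 45.9 and 45.1, ranges that overlap. Both arms together had 77.0 sites per Mb in the combined list, against 73.7 in the centre, a ratio of 1.04. In replicate 1 the density was 38.4 peaks per Mb on the arms and 45.9 in the centre, a ratio of 0.836. In replicate 2 the values were 36.1 on the arms and 45.1 in the centre, a ratio of 0.801. The direction of this contrast thus depended on the list, and the combined list turned to a ratio of 0.847 when only its sites found in both replicates were counted.

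Measured as length covered by peaks, the left arm was again lowest and the right arm and the centre were close. Sites covered 5.16% of the left arm, 7.77% of the right arm and 7.74% of the centre. Replicate 1 peaks covered 7.84%, 12.8% and 13.2% of these segments, and replicate 2 peaks covered 7.31%, 10.9% and 11.7%. Covered length follows both the number and the width of peaks called, which differed between lists.

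**Figure D1:**
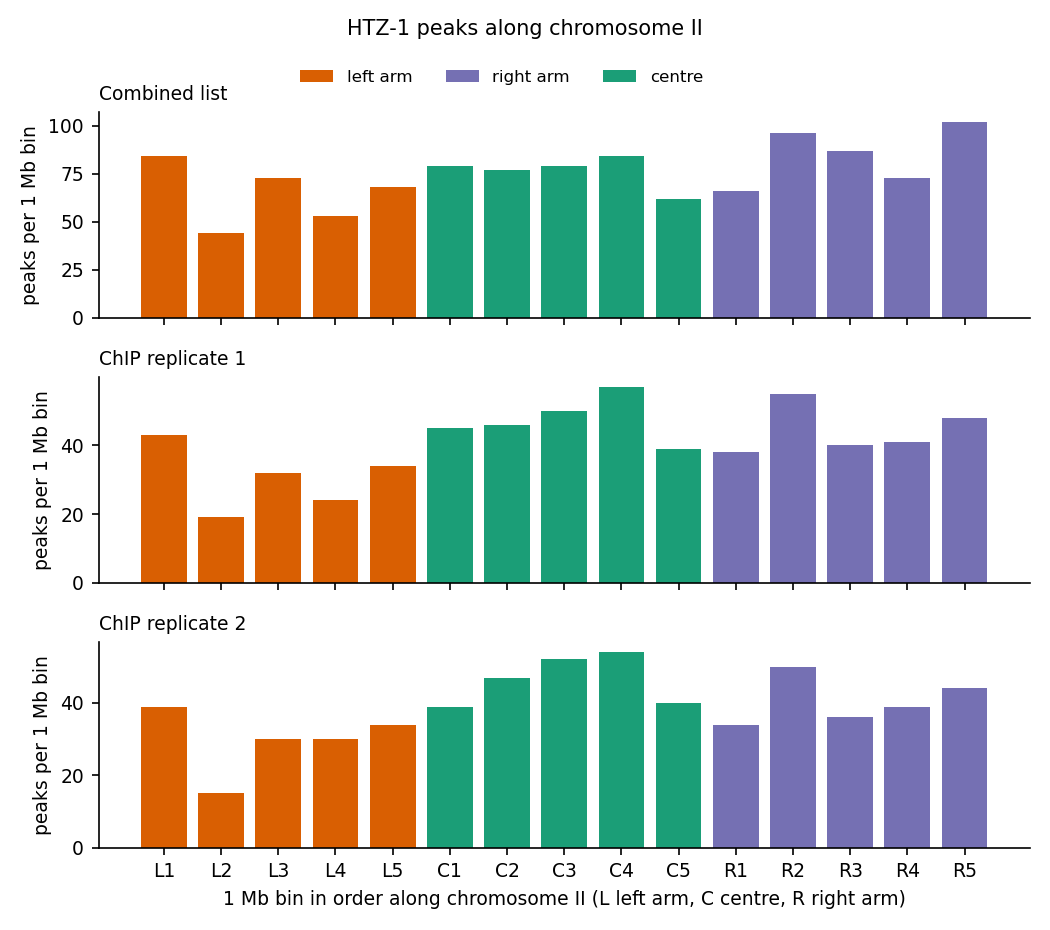
Number of HTZ-1 peaks (y axis) in each full 1 Mb bin of chromosome II (x axis, in order along the chromosome) in the combined list and in each ChIP replicate, as bars from 0 coloured by the segment of the bin's midpoint. The second left-arm bin is the lowest in all 3 lists, with 44, 19 and 15 peaks, and the fourth centre bin is the highest in both replicates, with 57 and 54.

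Along the chromosome the sites thinned out in the second megabase and were most frequent near the right end. The bin from 1 to 2 Mb held 44 sites, 19 replicate 1 peaks and 15 replicate 2 peaks, the lowest count of the 15 full bins in each list. The bin next to it, the first megabase, held 84 sites, 43 replicate 1 peaks and 39 replicate 2 peaks, so the left arm was not evenly sparse. The highest count in the combined list was 102 sites in the bin from 14 to 15 Mb, of which 54 were found in both replicates. The replicates placed their maxima in the bin from 8 to 9 Mb instead, with 57 and 54 peaks, where the combined list had 84 sites. The last 0.264 Mb held a further 32 sites, a density of 121 per Mb. Within 500 kb of the left end there were 48 sites, and within 500 kb of the furthest peak on the right there were 50. In the left stretch replicate 1 had 26 peaks and replicate 2 had 25, and in the right stretch each had 23.

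At finer scale the distribution was uneven in every segment. Among 152 full windows of 100 kb the median was 7 sites, with 1 at the least and 19 at the most. Windows with 2 sites or fewer numbered 10 of 51 on the left arm, 2 of 50 on the right arm and 2 of 51 in the centre. Windows with 12 sites or more numbered 8 on the left arm, 14 on the right arm and 7 in the centre. Replicate counts per window ranked alike, with a Spearman rho of 0.877 over the 152 windows, given as a description because neighbouring windows share a chromosome and peaks can reach across them.

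The densest window lay on the right arm at 12100001 to 12200000 and held 19 sites, covering 11.9 kb, with 11 peaks in replicate 1 and 7 in replicate 2. Only 6 of its 19 sites were found in both replicates, and 7 ranked in the upper 50% of all sites by score. The next window, in the centre at 6900001 to 7000000, held 17 sites, of which 11 were found in both replicates. A right-arm window at 14200001 to 14300000 also held 17 sites, with 7 found in both replicates and 4 in the upper 50% by score. The centre windows starting at 8000001 and 8200001 held 15 sites each, with 8 and 6 found in both replicates. Dense windows therefore differed in how many of their sites were found in both replicates. Sites found in neither replicate numbered 2 in the densest window and 4, 5, 5 and 2 in the others, in the order given. The densest window thus had few sites in both replicates but also few in neither.

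The emptiest windows, taken in order of position among those with the lowest count, were all on the left arm and held 1 site each. The windows starting at 1500001, 3600001 and 4100001 each had a single site found in both replicates, with 1 peak in each replicate list. The windows starting at 1200001 and 4500001 each had a single site found in neither replicate and no replicate peak at all. A further window with 1 site, the last of 6 on the chromosome, lay on the right arm. Counting every full window, 4 in replicate 1 and 4 in replicate 2 were without a peak.

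The longest stretches without a site were also mostly on the left arm. The first ran from 1135635 to 1297430, 161.8 kb without a site, and the next from 1502431 to 1653151, 150.7 kb. They were followed by 715105 to 848186 (133.1 kb) and 3555595 to 3682273 (126.7 kb), both on the left arm, and by 5922300 to 6045693 in the centre (123.4 kb). These are gaps in all 3 lists, since replicate peaks reached into each of them only at the edges, by at most 1297 bp in total. Stretches free of peaks in every list and longer than 100 kb numbered 5 on the left arm, 1 on the right arm and 1 in the centre. The longest gap of replicate 2, 182.5 kb from 14570378 to 14752869, was not one of them, because it overlapped 7 sites and 2 replicate 1 peaks. The replicate 1 peak at 14644619 to 14646126 lay inside the gap, and the other only reached into its right edge.

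**Figure D2:**
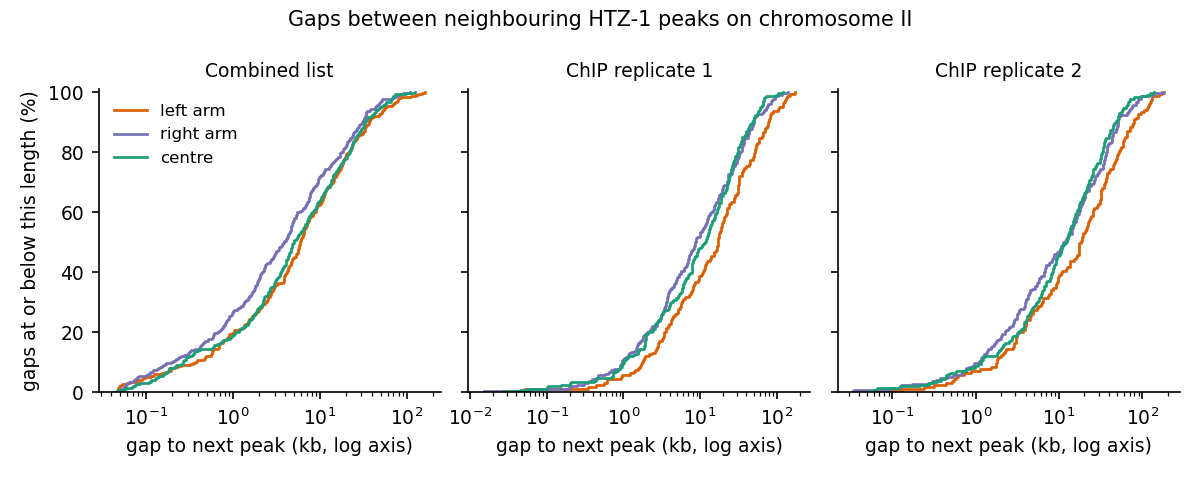
Cumulative share of gaps between neighbouring HTZ-1 peaks (y axis, %) by gap length (x axis, kb, log scale) for left arm, right arm and centre in each list. In both replicate lists the left-arm curve lies to the right of the others, with a median gap of 17265 and 18178 bp.

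Between neighbouring sites the median gap on chromosome II was 4765 bp, and the gaps spanned a wide range. On the left arm the median was 5908 bp, on the right arm 3845 bp and in the centre 5007 bp. In the replicate lists, which hold fewer peaks, the left arm stood apart more, with medians of 17265 and 18178 bp, against 8705 and 11485 bp on the right arm. The centre had 11709 and 12187 bp. Gaps of more than 50 kb in the combined list numbered 24 on the left arm, 14 on the right arm and 19 in the centre.

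Many sites nevertheless came in tight groups. When sites with less than 1 kb between them were joined, the 1159 sites formed 902 clusters, of which 708 were single sites, 148 were pairs and 46 held 3 or more. Of the sites on the right arm 45.1% belonged to such a group, against 35.8% on the left arm and 34.3% in the centre. Grouping was not particular to chromosome II. Of its sites found in both replicates 39.3% lay within 1 kb of another site, against 43.6% of such sites in the series. For sites meeting replicate 1 only the shares were 57.1% and 59.8%, and for replicate 2 only 50.0% and 62.8%. For sites meeting neither list they were 25.5% and 25.3%. The longest group on the left arm had 5 sites between 3930664 and 3936654, all found in both replicates. On the right arm the first of the longest groups had 5 sites between 14244430 and 14249357, of which 3 were found in both replicates, and no member of it scored above 16.7. In the centre the first of the longest groups had 4 sites between 5144614 and 5146560, none of them found in both replicates. One replicate peak often held several sites: 153 of 624 peaks in replicate 1 (24.5%) and 118 of 597 in replicate 2 (19.8%) held at least 2, against 27.2% and 23.3% of all peaks in those lists. In replicate 1 the peaks with several sites had a median width of 3811 bp and those with a single site 2352 bp.

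Among sites found in both replicates, the most isolated lay at 12603192 to 12605192 on the right arm, 59691 bp from its nearest neighbour. It ranked 1283 of 7546 by score and stood at the tied score of 3100 in replicate 1 and at 1732 in replicate 2. The next, at 2564343 to 2565802 on the left arm, was 59211 bp from any other site and ranked 764 of 7546 by score. The third, at 10099285 to 10100642 in the centre, was 53381 bp away and ranked 980. The remaining pair of the 5 most isolated, at 4173703 on the left arm and 7944580 in the centre, ranked 3740 and 1820. These 5 sites thus had both high and middling scores. Sites found in both replicates mostly ranked high, so choosing among them left out most isolated sites with low scores. How distance from other sites goes with score was therefore not tested.

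Support in the replicate lists was lowest on the left arm. On chromosome II 680 of 1159 sites (58.7%, interval 55.8% to 61.5%) overlapped peaks of both replicates by at least 1 bp, against 57.6% of all sites in the series, so the chromosome as a whole was near the background. The share was 49.6% on the left arm (44.1% to 55.04%), 58.3% on the right arm (53.5% to 62.9%) and 67.3% in the centre (62.3% to 72.01%). Sites that met neither replicate list numbered 271 (23.4%), against 23.3% in the series, and made up 31.9% of the left arm, 22.5% of the right arm and 16.8% of the centre. A further 154 sites met replicate 1 only (13.3%, against 13.9% in the series) and 54 met replicate 2 only (4.66%, against 5.23%).

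Sites found in both replicates were wide and highly ranked, and sites found in neither were narrow and low. The combined list covers the same series as the replicate lists, so this overlap is not independent evidence for a site. A wider site also meets an overlap of 1 bp more easily. The 680 sites with full support were 1266 bp wide at the median (quartiles 870.5 and 1603 bp), and 565 of them (83.1%) ranked in the upper 50% by score. Such sites of the whole series were close to this, with a median width of 1235 bp and 80.6% in the upper 50%. The 271 sites with none were 260.0 bp wide at the median (quartiles 191.5 and 369 bp), and 3 of them (1.11%) ranked in the upper 50%. Unsupported sites of the whole series had a median width of 268 bp and 2.50% in the upper 50%. Support changed near the middle of the score order. In decile 5 of the series' list, counted from the lowest scores, 34 of 112 chromosome II sites were found in both replicates (30.4%), in decile 6 it was 86 of 121 (71.1%) and in decile 7 it was 94 of 99 (94.9%). All 146 sites in decile 9 and all 134 in decile 10 were found in both.

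Within the upper 50% by score the segments had similar support, 92.2% on the left arm, 94.9% on the right arm and 92.8% in the centre. Within the lower 50% the left arm was lower, with 25 of 182 sites in both replicates (13.7%, 9.09% to 19.6%), against 57 of 233 on the right arm (24.5%, 19.1% to 30.5%). The centre had 33 of 139 (23.7%, 16.9% to 31.7%). The intervals of left arm and right arm overlap narrowly, and neighbouring sites are not independent.

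The exception among unsupported sites was at 13595872 to 13597400 on the right arm. It was 1529 bp wide and scored 62.8, rank 1967 of 7546, the highest score of any site in the series that met neither replicate list. The nearest replicate peaks were 18955 bp away in replicate 1 and 18999 bp in replicate 2. The next unsupported sites were much weaker, at 4857174 on the left arm (score 22.1), 6716718 in the centre (18.4), 14000695 on the right arm (15.0) and 8158079 in the centre (14.4).

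**Figure D3:**
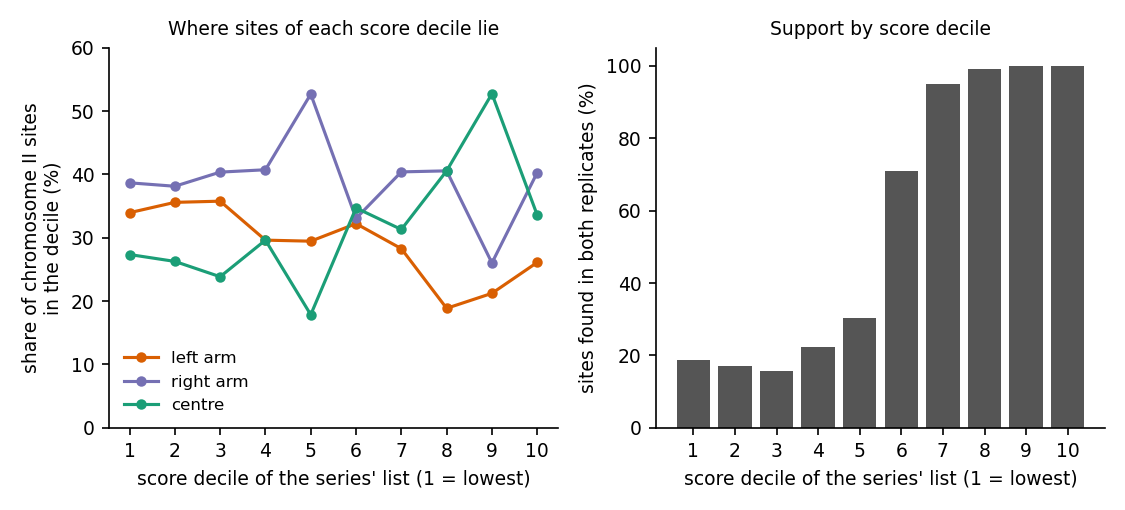
Chromosome II sites by score decile of the whole combined list (x axis, 1 lowest), with the share of the decile's chromosome II sites in each segment (left panel, y axis, %) and the share found in both replicates (right panel, y axis, %). The centre holds 52.7% of the sites in decile 9 and 33.6% in decile 10, and support stands at 94.9% in decile 7 and higher above it.

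By score, sites in the centre of chromosome II ranked high more often than sites on the arms, while the very strongest of the combined list lay on the arms. The share of sites in the upper 50% was 47.0% on the arms (43.5% to 50.6%), against 63.0% in the centre (57.9% to 67.9%), a difference of -16.0 percentage points. The difference was -14.4 points in replicate 1, with 47.9% on the arms and 62.4% in the centre. It was -11.6 points in replicate 2, with 48.0% on the arms and 59.6% in the centre. The arms alike ranked low, with 45.7% on the left arm and 47.99% on the right arm in the combined list. All 3 lists thus showed the lower share on the arms, and the spread between the replicates, 2.01 points (SD, n = 2), was smaller than the difference.

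The order changed at the top of the list. All of the 10 highest-scoring sites lay on the arms, 7 on the left and 3 on the right. Of the top 50 sites 39 lay on the arms and 11 in the centre, and of the top 200 the arms held 118 and the centre 82. The arms make up 67.6% of all sites on the chromosome. In score decile 9 the arms held 69 of 146 sites and the centre 77, and in decile 10 the arms held 89 and the centre 45. The replicate lists have many ties at a score of 3100, which limits this view. At 3100 or above stood 95 replicate 1 peaks on chromosome II (15.2%, against 13.4% in the series) and 35 replicate 2 peaks (5.86%, against 4.85%). Of the 35 in replicate 2, 28 lay on the arms and 7 in the centre, while the arms held 61.5% of all its chromosome II peaks. Of the 95 in replicate 1, 55 lay on the arms and 40 in the centre, close to the 62.5% of all its chromosome II peaks on the arms, so replicate 1 did not show the pattern.

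The highest-scoring site found in both replicates was at 13722749 to 13726601 on the right arm, 3853 bp wide with a score of 203.7, rank 3 in the series. It was followed on the left arm by 2786334 to 2788017 (score 199.1, 1684 bp wide) and on the right arm by 14153499 to 14155258 (192.5, 1760 bp). The next were all on the left arm, at 254279 to 255803 (191.6), 4321795 to 4323937 (184.8), 2478272 to 2479828 (182.6) and 346996 to 348639 (174.8). The list of 10 ended with 11472953 to 11474507 on the right arm (173.9) and with 3076454 to 3077783 (171.5) and 2231547 to 2233331 (170.4) on the left arm. Except for the first, these sites were between 1330 and 2143 bp wide. Of the 10, 7 stood at the tied score of 3100 in both replicates. The site at 2478272 scored 2676 in replicate 1 and 2104 in replicate 2, and the site at 11472953 had 2656 and 2399. The site at 3076454 had 2981 in replicate 1 and 3100 in replicate 2.

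In the centre the highest-scoring sites were at 6320244 to 6321480 (score 168.3, rank 13 on the chromosome), 5357568 to 5359268 (162.8, rank 18) and 7873536 to 7875032 (158.0, rank 21). In replicate 1 they scored 3100, 3100 and 3038, and in replicate 2 they scored 2148, 2802 and 2237. None of these centre sites reached the tied score in replicate 2, where 7 of the 10 strongest arm sites and the site at 3076454 did. The centre sites rank below those 10 in the combined list, so the sites compared are not matched in score. Other centre peaks did reach it, since 7 replicate 2 peaks in the centre stood at 3100 or above.

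Sites were also narrower on the arms. The median width over chromosome II was 758.0 bp, with 585.0 bp on the left arm, 708.0 bp on the right arm and 1047 bp in the centre. Replicate 1 peaks had medians of 2285 bp, 2486 bp and 2641 bp on left arm, right arm and centre. Replicate 2 peaks had 2258 bp, 2422 bp and 2467 bp. The left arm was lowest and the centre highest in each list. Width and score went together across sites, with a Spearman rho of 0.890 over the 1159 sites, 0.728 over replicate 1 peaks and 0.745 over replicate 2 peaks. These coefficients describe single lists, and peaks of a list share its library and caller.

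The widest site lay in the centre at 10168995 to 10173378, 4384 bp wide, and stood at 3100 in both replicates. The site with the highest score, at 13722749, was the second widest. The others among the 5 widest were at 5376576 to 5380296 in the centre (3721 bp), and at 14140848 to 14144443 (3596 bp) and 12766267 to 12769611 (3345 bp) on the right arm. All 5 were found in both replicates and at 3100 in replicate 1. The site at 5376576 ranked only 1220 by score and had 1631 in replicate 2, so great width did not always go with a top score.

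The right arm was not uniform. From 10.2 to 12 Mb it was nearer to the centre in score, support and width, with 57.8% of 154 sites in the upper 50% by score (49.6% to 65.7%), 68.8% found in both replicates and a median width of 901.0 bp. From 12 Mb to the end, 42.9% of 294 sites ranked in the upper 50% (37.1% to 48.7%), 52.7% were found in both replicates and the median width was 569 bp. Density did not follow this division in the combined list, with 85.6 sites per Mb before 12 Mb and 90.1 after it, against 73.7 in the centre. In the replicate lists it was higher before 12 Mb, with 49.4 and 44.4 peaks per Mb, against 43.5 and 40.7 after it. The centre had 45.9 and 45.1 in these lists. The division at 12 Mb was also an alternative limit of the right arm. By score the replicate lists showed the same order as the combined list. In them 53.9% and 57.5% of peaks were in the upper 50% before 12 Mb, against 45.1% and 44.4% after it. The bin from 12 to 13 Mb had 87 sites but only 37.9% of them in the upper 50% and 42.5% in both replicates, while the bin before it had 96 sites with 57.3% and 64.6%.

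**Figure D4:**
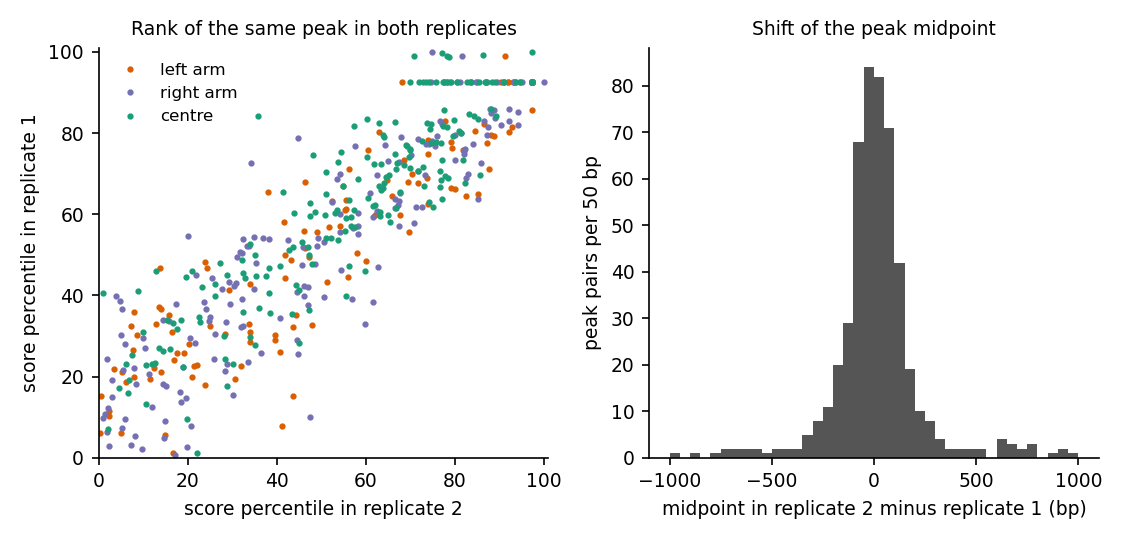
Replicate peaks on chromosome II that overlap one to one (513 pairs), with the score percentile in replicate 1 (y axis) against that in replicate 2 (x axis) coloured by segment, and the shift of the midpoint from replicate 1 to replicate 2 (bp) as a histogram of pairs. Most pairs lie near 0, the row of points near percentile 92.6 is the tied score of 3100 in replicate 1, and 10 pairs shifted by more than 1000 bp fall outside the histogram.

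The replicates put the same peaks at nearly the same place. Of the replicate 1 peaks on chromosome II 537 of 624 overlapped a replicate 2 peak (86.1%, 83.1% to 88.7%), against 85.9% in the series. Of the replicate 2 peaks 556 of 597 overlapped a replicate 1 peak (93.1%, 90.8% to 95.03%), against 93.6%. Over the 513 pairs that matched one to one, the midpoints differed by a median of 81 bp in either direction and 92.2% of pairs lay within 500 bp. In 90% of pairs the shift was at most 371 bp. The median shift without regard to sign was 68.25 bp on the left arm, 99.75 bp on the right arm and 76 bp in the centre. Peaks of replicate 2 were narrower than their replicate 1 partners in 348 of 513 pairs, with median widths of 2446 bp in replicate 2 and 2583 bp in replicate 1.

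Scores of these pairs ranked alike in every segment. Spearman's rho was 0.914 over all 513 pairs, with 0.920 on the left arm (128 pairs), 0.920 on the right arm (188 pairs) and 0.895 in the centre (197 pairs). Over the 424 pairs in which both scores were below 3100 it was 0.886. The coefficients are given as descriptions, since peaks of a library are not replicates.

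Peaks without a partner in the other replicate were mostly weak. Of 87 such peaks in replicate 1, 78 lay in the lowest 25% of its list, and of 41 in replicate 2, 34 did. The strongest in replicate 1, at 12198505 to 12200547, reached only percentile 35.2 of the list, with a score of 442.9. The next, at 5414433 to 5419450, was 5018 bp wide and contained 4 sites, and the third, at 14521284 to 14526516, lay 294 bp from a replicate 2 peak. In replicate 2 the strongest, at 12842909 to 12846784 on the right arm, reached percentile 79.4 with a score of 1649, contained 3 sites and lay 31161 bp from any replicate 1 peak. The next, at 8286739 to 8293553 in the centre, was 6815 bp wide, reached percentile 68.9 and also contained 3 sites. The third was at 14336726 to 14339776, at percentile 47.7. By percentile, the strongest peaks of a single replicate on chromosome II were those of replicate 2.

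Set beside the other autosomes, chromosome II was the second lowest in density of 5 in the combined list and the third in each replicate list. It had 75.9 sites per Mb, against 84.0 over chromosomes I, III, IV and V together, a ratio of 0.904, and those 4 chromosomes spanned 52.7 on V to 113.3 on I. In the replicate lists the ratio was 0.978 and 0.979. The low left arm was not shared by every autosome. With each chromosome cut at equal parts of its span, the left arm had 0.742 times as many sites as the right arm on II and 0.735 times on III, but 1.29 times on I, 1.38 times on IV and 1.11 times on V. In the replicate lists II had 0.684 and 0.718. The arms had the lower share of upper-50% sites on all 5 autosomes, with a difference of arms minus centre of -16.7 points on II, against -7.85 on IV to -11.2 on III. In replicate 1 that difference was -14.1 points on II, against -7.36 to -13.1 on the others, and in replicate 2 it was -11.9 points, against -3.50 to -6.13. No test was run that would set chromosome II apart in these values, since each autosome gives 1 value per list. Of the strongest 5% of sites in the series, 68 lay on chromosome II and 73.5% of those were on its arms, against 61.8% on V to 77.8% on IV.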

How the data were processed

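The data were 3 deposited peak lists in GFF3 format on WormBase WS220, per the file headers. Reads were aligned with BWA to ce10, per the submitters' processing notes, and the files' source column names MACS for the replicate lists and MACS v2 for the combined list. Thresholds, the use of the input and how the combined list was made are not given in the sources used here. The score of each peak is the authors' caller's own value, deposited without a scale, and was used as a rank within its list. The other deposited values are start and end. Read depth is unknown.

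Peaks were assigned to segments, 1 Mb bins and 100 kb windows by midpoint with Python 3.11.15, pandas 2.3.3 and scipy 1.17.1. Peaks of different lists overlapped when they shared at least 1 bp. Ranks and the upper 50% by score were taken over the whole list. The code was tested on simulated lists. Named sites follow a rule by score, width, spacing or count, with ties going to the lower start. The members and rules were chosen with earlier results of these data known. Alternatives were the top 50% by score, stricter overlap, each replicate alone, sites in both replicates, merging within 1 kb, covered length and cuts at 4.9 and 12 Mb.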

Additional observations from a re-analysis of the deposited data

How the results depend on the processing

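No paired analysis was possible because the input samples, which share the replicate numbers of the ChIP samples, were not analysed here. Contrasts between segments are given within each replicate list. The contrast of arms with centre changed direction in every alternative run. The combined list gave 1.04 times as many sites per Mb on the arms as in the centre, but 0.801 to 0.836 in single replicate lists, 0.779 in the top 50% by score, 0.847 over sites in both replicates, 0.987 after merging within 1 kb, 0.835 by covered length and 0.946 with cuts at 4.9 and 12 Mb.

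The ratio of left arm to right arm stayed below 1 in the alternatives run. It was 0.683 to 0.718 in single replicate lists, 0.707 in the top 50%, 0.632 over sites in both replicates, 0.812 after merging, 0.665 by covered length and 0.702 with the other cuts. Chromosome II over the other autosomes was 0.978 to 0.979 in the replicate lists, 0.949 in the top 50%, 0.915 over sites in both replicates, 0.955 after merging and 0.919 by covered length. The share of upper-50% sites on arms minus centre was -14.4 to -11.6 points in the replicate lists and -18.1 points with the other cuts.

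Support depended on the overlap required. The share of sites found in both replicates was 25.5% when the shared stretch had to span 50% of each peak, which many narrow sites cannot reach. It was 93.4% in the top 50%, and 63.3% to 72.0% when a single replicate was asked for. Replicate 1 peaks in the top 50% by score all had a partner (100%). Over peaks of any score, 86.1% of replicate 1 peaks and 93.1% of replicate 2 peaks had a partner.

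Widths and gaps differed between lists and subsets, and the cause was not tested. Median width was 2417 to 2527 bp in the replicate lists, 1347 bp in the top 50%, 1266 bp over sites in both replicates and 1119 bp after merging. The median gap was 11768 to 13379 bp, 13462 bp, 9261 bp and 7603 bp in the same order. The longest stretch without a site was 172.2 to 182.5 kb in the replicate lists, 211.0 kb in the top 50% and 220.5 kb over sites in both replicates. The highest count in a 100 kb window was 11 in each replicate list, 10 in the top 50% and 12 over sites in both replicates. The absence of read counts limits all values to peaks as called.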

Other observations

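A run of 4 replicate 2 peaks in the centre, from 9807772 to 9823936, held no site of the combined list and no replicate 1 peak. It was noticed after the values were seen. The peaks were 2194 to 4876 bp wide, covered 14918 bp of the 16.2 kb, lay at most 845 bp apart and stood between percentiles 15.1 and 32.2 of the replicate 2 list by score. Of the 6 replicate 2 peaks on chromosome II without a site, these are 4. The others were at 140433 to 142417 and 3164412 to 3168393 on the left arm. In replicate 1, 1 peak had no site, at 9969715 to 9971508.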
